A study of Mus musculus with 31 samples.

Results

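Gene counts of multipotent progenitors (MPP) were set against those of long-term hematopoietic stem cells (HSC) from mice that had received PBS alone. The libraries were chosen by their titles: 4 of MPP and 4 of HSC, 8 of the 31 libraries of the series, with all genes that passed a count filter. MPP and HSC were both sorted from the bone marrow of wild-type C57BL/6 mice with an age label of 10 weeks, 28 days after PBS was injected into the peritoneum. A second set of MPP (4 libraries) and HSC (4 libraries) came from mice given 1 mg of β-glucan, a glucose polymer of fungal cell walls, and shared no library with the first; it is used only where the same contrast is set beside it. The labels name no transgene and no allele. They give neither the surface gate of the sorts nor whether replicates came from separate mice, so the p-values below measure the spread between these libraries, which may be technical. MPP replicate 1 carries a cell type tag of HSC and is placed here by its title.

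HSC sit at the top of blood formation, divide rarely and can rebuild all lineages after transplantation. MPP are their offspring: they keep the potential for many lineages, divide more often and no longer renew themselves for life. In the mouse the 2 stages are commonly told apart by surface proteins, with the SLAM family receptor CD150 (Slamf1) and the protein C receptor (Procr) on HSC, and CD48, CD34 and the receptor FLT3 appearing on MPP. Some HSC also carry transcripts of platelet genes, and some MPP carry transcripts of lymphoid genes, a state called lineage priming.

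Each MPP library held 30073713 to 35917497 counts and each HSC library 29751430 to 39485556, with 22668 to 23474 genes detected in MPP and 23022 to 23713 in HSC. Transcripts of mature cells were present at high level in both: the 4 haemoglobin genes held 14.5 to 17.2% of the counts of MPP libraries and 17.1 to 18.2% of those of HSC libraries, and 18 markers of mature neutrophils held 6.41 to 7.62% and 7.24 to 7.98%. Markers of HSC identity, 46 genes, held 0.133 to 0.146% of counts in MPP and 0.136 to 0.198% in HSC. No defining marker of HSC, MPP or other marrow cells was at 0 counts in any of the 8 libraries; the HSC marker Fgd5 was lowest, with 8 counts in 1 library. HSC replicate 2 stood apart from the other HSC libraries: its counts differed from theirs by a chi-square of 32.7 to 51.7 per gene, against 12.2 to 22.5 among the other HSC libraries. It had the lowest summed level of HSC and megakaryocyte markers among the HSC libraries and the highest of DNA replication and mitosis genes. Named genes whose call changed without it, and counts of at least 3 list members that moved by over 1.5 times, are given both ways. In sorted cells measured in bulk, fewer cells of a type and less RNA per cell cannot be told apart.

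Stem cell and platelet genes were lower in MPP than in HSC, and early lymphoid, dendritic cell, antigen presentation and ribosome genes were higher. Genes count as called below where the quasi-likelihood test of edgeR gave a Benjamini-Hochberg adjusted p under 0.05. A figure in parentheses behind a gene is the log2 fold change, MPP over HSC, ± its standard error. Levels are given as CPM on scaled library totals, without adjustment for gene length, and are not compared between genes. Of 16122 genes tested, 3493 were called (21.7%), 1544 higher in MPP (9.58%) and 1949 lower (12.1%). Of these, 537 changed over 2-fold, 180 higher and 357 lower. The 2 groups of libraries did not overlap in 4264 genes (26.4%), with every MPP library above every HSC library in 2041 (12.7%) and below in 2223 (13.8%). The median change of all genes tested was -0.02. Without HSC replicate 2 the count rose to 2322 higher (14.3%) and 2728 lower (16.8%), and without MPP replicate 1 it was 889 higher and 1115 lower. Without MPP replicate 4 the lower genes numbered 1280. Counts of gene lists below are set beside these shares of all genes. The lists were chosen with earlier results of these data known, so the shares describe the lists and are no test of them.

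**Figure D1:**
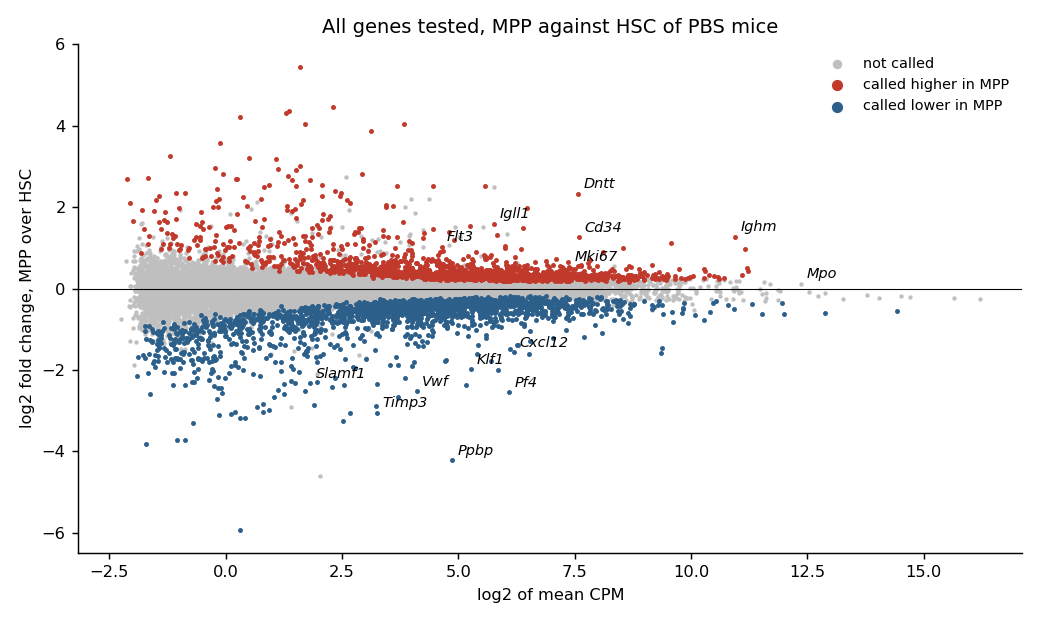
Log2 fold change of MPP over HSC (vertical axis) against the log2 of the mean CPM of the 8 libraries (horizontal axis) for each of the 16122 genes tested; called genes are coloured by direction. Dntt and Igll1 lie highest among the labelled genes and Ppbp, Timp3, Vwf and Pf4 lowest.

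The surface receptors by which MPP are told from HSC differed in the direction of the sorted stages. Cd34 (ENSMUSG00000016494, chromosome 1, 194938819 to 194961279 in mm10), a sialomucin of progenitors, had 307, 243, 253 and 290 CPM in the MPP libraries, against 122, 97.3, 107 and 129 CPM in the HSC libraries. Every MPP library lay above every HSC library, and the change was 1.26 ± 0.10 (adjusted p = 4.65e-05, edgeR). Flt3, the receptor tyrosine kinase that marks progenitors with lymphoid potential, had 35.5, 29.4, 30.3 and 38.4 CPM in MPP, against 14.2, 17.8, 18.2 and 15.3 CPM in HSC (1.03 ± 0.11). Cd48, a SLAM family ligand gained on leaving the HSC stage, averaged 170 ± 7.95 CPM in MPP and 103 ± 8.69 CPM in HSC (SD, n = 4 each; 0.73 ± 0.07). The costimulatory receptor gene Cd27 (0.89 ± 0.17), the SLAM receptor gene Cd244a (0.94 ± 0.14) and the interleukin-7 receptor gene Il7r (0.53 ± 0.10) were higher in MPP too.

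Slamf1 (ENSMUSG00000015316, chromosome 1, 171767127 to 171801184), which encodes CD150, went the other way: it had 1.28, 1.26, 1.23 and 0.886 CPM in MPP, against 6.73, 3.63, 5.25 and 7.85 CPM in HSC. No MPP library came near the lowest HSC library, replicate 2, and the change was -2.33 ± 0.24 (adjusted p = 0.000127, edgeR). Kit, the stem cell factor receptor carried by both stages, had 212, 185, 209 and 245 CPM in MPP, against 263, 204, 213 and 253 CPM in HSC. Its groups overlapped and it was not called (-0.13 ± 0.10). Ly6a, which encodes the antigen Sca-1, was higher in MPP: 68.4, 59.3, 58.9 and 54.2 CPM, against 40.2, 27.7, 36.5 and 36.6 CPM in HSC (0.77 ± 0.11). Procr had 5.83, 5.04, 4.33 and 4.71 CPM in MPP, against 10.5, 4.65, 6.85 and 8.55 CPM in HSC. Only HSC replicate 2 reached into the MPP range, and Procr was not called with it (-0.62 ± 0.21, adjusted p = 0.0592, edgeR) and was called without it (-0.80, adjusted p = 0.00271). Of the 13 sort and stage markers tested, 7 were higher and 3 lower in MPP, with a median of 0.53.

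**Figure D2:**
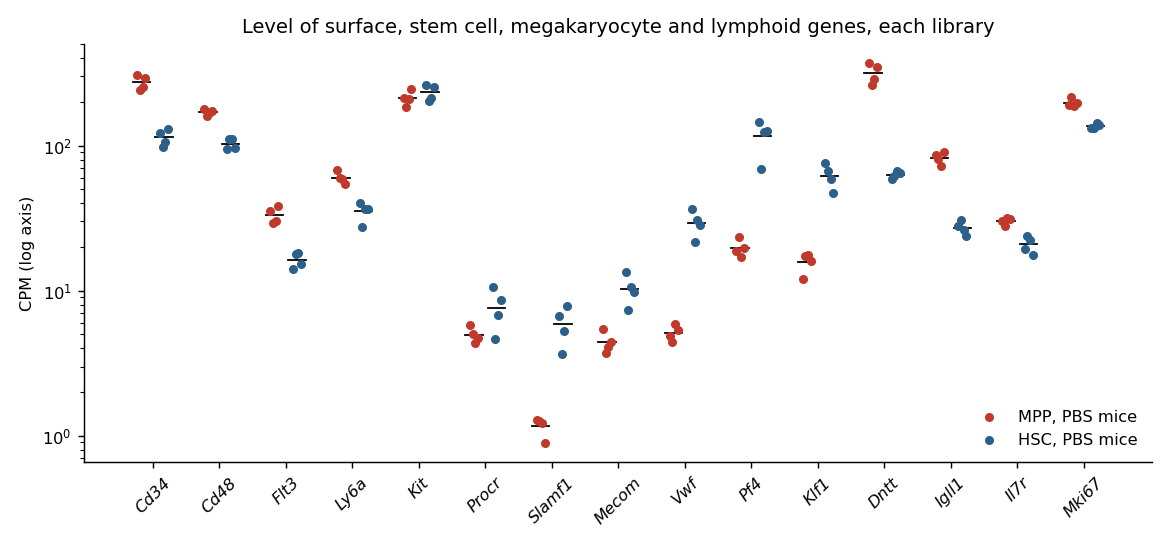
CPM of 15 genes in each library (log axis), with MPP libraries of PBS mice left of HSC libraries and a black line at each group's mean. MPP and HSC points are separate in Cd34, Slamf1, Vwf and Dntt and overlap in Kit and Procr.

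Genes of HSC identity were mostly lower in MPP. Of 44 tested, 27 were lower and 2 higher, Ly6a and Vldlr, and the median change was -0.85. Without HSC replicate 2, 36 of 45 were lower. Tek, which encodes the angiopoietin receptor TIE2, had 2.26, 2.71, 2.81 and 3.20 CPM in MPP, against 13.4, 8.34, 8.19 and 12 CPM in HSC (-1.93 ± 0.19). The groups were far apart, as they were in Esam, an endothelial adhesion molecule also found on HSC, with 5.73 to 8.60 CPM in MPP and 15.3 to 32.9 CPM in HSC (-1.90 ± 0.23). The cation channel gene Trpc6 (-2.85 ± 0.25) and the junction gene Jam3 (-1.72 ± 0.19) were lower too. The imprinted gene Ndn, a neuronal and stem cell growth suppressor, had 0.719, 0.867, 0.420 and 0.664 CPM in MPP, against 5.35, 2.17, 3.22 and 5.67 CPM in HSC (-2.60 ± 0.33). Every HSC library was well above the MPP libraries. The CDK inhibitor gene Cdkn1c was at 0.390 CPM in MPP and 1.32 CPM in HSC on average (-1.76 ± 0.28).

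HSC identity genes that did not pass the test included Ifitm1 (0.27 ± 0.11) and Ifitm3 (0.09 ± 0.06), membrane proteins of antiviral defence, and Slc22a3 (-0.04 ± 0.19), an organic cation transporter.

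Among 31 transcription factors of stem cells, 10 were lower in MPP and 1 was higher, with a median of -0.31; without HSC replicate 2, 19 of 32 were lower. Mecom, which encodes the zinc finger factor EVI1, had 5.46, 3.69, 4.07 and 4.46 CPM in MPP, against 13.5, 7.41, 10.6 and 9.76 CPM in HSC (-1.22 ± 0.18, adjusted p = 0.00103, edgeR). Every MPP library lay below every HSC library. The proto-oncogene Mycn (-1.68 ± 0.29), the forkhead factor Foxo3 (-0.71 ± 0.08), which maintains HSC quiescence, and the basic helix-loop-helix factor Tal1 (-0.62 ± 0.09) were lower as well. The ETS factor Erg was the member that was higher, at 21.7, 17.7, 18.4 and 15.5 CPM in MPP, against 13.7, 9.54, 13.1 and 11.1 CPM in HSC (0.63 ± 0.13).

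Hlf, a bZIP factor often used to mark HSC, had 32.4, 20.5, 23.4 and 27.5 CPM in MPP, against 42.0, 21.6, 36.6 and 35.8 CPM in HSC. HSC replicate 2 lay within the MPP range, and Hlf was called only without it (-0.39 ± 0.19, adjusted p = 0.165 with it and -0.55, adjusted p = 0.00776 without it, edgeR). Meis1 (-0.38 ± 0.16) and Runx1 (-0.20 ± 0.17), regulators of stem cell formation and upkeep, did not pass the test with all 8 libraries and were called lower without HSC replicate 2 (-0.52 for Meis1 and -0.35 for Runx1).

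Megakaryocyte genes, those of the cells that shed platelets, showed the largest fall. Of 28 tested, 25 were lower in MPP and 1 was higher, with a median of -1.89; without HSC replicate 2, 26 of 29 were lower. The list's summed level was 0.0951 to 0.0997% of counts in MPP libraries, against 0.142% in HSC replicate 2 and 0.168 to 0.201% in the other HSC libraries. The promoters of 2 of its genes, a platelet receptor subunit and a platelet chemokine, are shown to set their changes beside the letters at their start sites. Both are 300 bases long, 250 before and 50 after the start, on the plus strand and from RefSeq for GRCm38.p6: chr11:70638872-70639171 for Gp1ba and chr5:90772185-90772484 for Pf4. Capitals mark GATA motifs (AGATAA or TGATAA, on either strand) and, in Gp1ba, an ETS motif (CCGGAAG or CAGGAAG, on either strand).
Gp1ba: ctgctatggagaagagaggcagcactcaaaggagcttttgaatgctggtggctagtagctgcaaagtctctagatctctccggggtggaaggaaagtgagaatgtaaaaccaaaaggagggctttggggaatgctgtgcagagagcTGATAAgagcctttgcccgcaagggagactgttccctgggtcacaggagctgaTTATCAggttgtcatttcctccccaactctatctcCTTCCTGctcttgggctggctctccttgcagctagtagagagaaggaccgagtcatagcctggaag
Pf4: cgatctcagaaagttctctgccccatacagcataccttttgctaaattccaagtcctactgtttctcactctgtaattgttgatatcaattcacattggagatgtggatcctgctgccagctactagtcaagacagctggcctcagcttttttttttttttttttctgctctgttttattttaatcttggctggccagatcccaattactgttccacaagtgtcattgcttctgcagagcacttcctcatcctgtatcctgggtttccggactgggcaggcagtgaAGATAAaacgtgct
The Gp1ba window holds 2 GATA matches and 1 ETS match, and the Pf4 window 1 GATA match. A GATA match was found in 7 of the 20 promoters of the list in the RefSeq table (35%), against 19% of 27025 promoters of all genes, and an ETS match in 2 of 20 (10%), against 20.9%. Here and below, list promoters were those nearest to the start of the counted gene. Promoters of all genes were the first listed for each gene, so the shares rest on different rules of choice.

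Gp1ba (ENSMUSG00000050675, chromosome 11, 70639122 to 70642036), a subunit of the platelet receptor for von Willebrand factor, had 3.46, 3.08, 3.03 and 2.91 CPM in MPP, against 20.1, 10.7, 17.5 and 15.2 CPM in HSC (-2.34 ± 0.18, adjusted p = 3.25e-05, edgeR). Pf4 (ENSMUSG00000029373, chromosome 5, 90772435 to 90773383), the chemokine platelet factor 4 of α granules, had 18.9, 23.4, 17 and 19.7 CPM in MPP, against 145, 69.4, 124 and 126 CPM in HSC (-2.55 ± 0.20). In both genes HSC replicate 2 was the lowest HSC library and lay well above every MPP library. Ppbp, the neighbouring platelet chemokine gene, had 2.13, 3.53, 3.45 and 2.82 CPM in MPP, against 94.6, 8.49, 61.4 and 57.8 CPM in HSC. Its log2 fall was the largest of the named genes (-4.22 ± 0.57), and its HSC libraries were widely spread, with replicate 2 far below the others. Vwf (ENSMUSG00000001930, chromosome 6, 125546774 to 125686679), von Willebrand factor itself and a marker of platelet-primed HSC, had 4.87, 4.39, 5.87 and 5.32 CPM in MPP, against 36.6, 21.8, 30.8 and 28.3 CPM in HSC (-2.52 ± 0.16, adjusted p = 1.01e-05, edgeR).

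The fibrinogen receptor was lower in both chains: Itga2b (CD41) had 25, 22.4, 22.5 and 21.7 CPM in MPP, against 127, 54.6, 86.2 and 103 CPM in HSC (-2.01 ± 0.20), and Itgb3 changed by -1.77 ± 0.19. The platelet tubulin gene Tubb1 had 1.92, 1.82, 2.55 and 2.66 CPM in MPP, against 15.8, 9.16, 6.69 and 34.2 CPM in HSC (-2.88 ± 0.45). HSC replicate 4 gave the highest Tubb1 level, and without it the change was -2.25, still called. The α granule gene Mmrn1 (-2.36 ± 0.18), the thrombin receptor gene F2rl2 (-2.20 ± 0.21) and the caveolar protein gene Cavin2 (-2.66 ± 0.17) fell likewise. Smaller falls were seen in the ETS factor Fli1 (-0.26 ± 0.06), the megakaryocyte and erythroid factor Nfe2 (-0.47 ± 0.10) and the tetraspanin Cd9 (-0.54 ± 0.08). Selp, the platelet and endothelial adhesion protein P-selectin, did not pass the test: it had 8.79, 6.83, 7.65 and 7.75 CPM in MPP, against 7.31, 4.83, 7.03 and 7.05 CPM in HSC (0.24 ± 0.14).

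Red cell genes were also lower in MPP, by smaller amounts. Of 25 tested, 18 were lower and none was higher (median -0.51), and the count of lower genes was 10 without MPP replicate 1 and 11 without MPP replicate 4. Klf1, the Krüppel-like factor that drives red cell genes, had 12, 17.3, 17.5 and 15.9 CPM in MPP, against 75.3, 66.9, 58.6 and 47.4 CPM in HSC (-1.99 ± 0.15, adjusted p = 3.25e-05, edgeR). The groups stood far apart, more so than for Gata1, the zinc finger factor shared by red cells and megakaryocytes, with 105, 111, 112 and 106 CPM in MPP, against 141, 183, 138 and 147 CPM in HSC (-0.49 ± 0.09). The erythropoietin receptor gene Epor (-0.74 ± 0.09), the water channel gene Aqp1 (-0.84 ± 0.13) and the membrane skeleton gene Sptb (-0.64 ± 0.11) were lower. The globin genes themselves did not pass the test, with changes of -0.19 to -0.26, and the copies Hba-a1 and Hba-a2 cannot be told apart in full because their sequences are nearly the same. Haemoglobin genes held a somewhat smaller share of counts in MPP than in HSC, as given above, and the part of red cell transcripts from other cells in these changes was not tested.

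Genes of eosinophils were lower as well, and genes of mast cells and basophils did not share 1 direction. Of 17 markers of mast cells, basophils and eosinophils tested, 8 were lower and 2 higher in MPP (median -0.38), with 5 lower without MPP replicate 2 or MPP replicate 4. Prg2, the major basic protein of eosinophil granules, had 2391, 2091, 2355 and 2408 CPM in MPP, against 3478, 4164, 3165 and 3377 CPM in HSC (-0.62 ± 0.10). Epx, eosinophil peroxidase, had 294, 213, 312 and 320 CPM in MPP, against 556, 634, 417 and 447 CPM in HSC (-0.85 ± 0.15). Cpa3, the carboxypeptidase of mast cells and of early progenitors, was higher at 47.8, 43.9, 48.2 and 46.3 CPM in MPP, against 27.1, 26.7, 30.5 and 22.9 CPM in HSC (0.80 ± 0.09). The 3 genes each separated the groups completely. The basophil protease gene Mcpt8 (0.10 ± 0.08) and Ms4a2 (0.22 ± 0.13), both defining markers of mast cells and basophils, were not called. Without HSC replicate 2, Ms4a2 was called higher (0.33), while the list members Fcer1a (-0.35) and Hdc (-0.25) were called lower.

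Early lymphoid genes were higher in MPP as a group. Of 28 tested, 18 were higher and none was lower, with a median of 0.40. The summed level of the list was 0.377 to 0.409% of counts in MPP libraries and 0.272 to 0.277% in HSC libraries. Dntt (ENSMUSG00000025014, chromosome 19, 41029275 to 41059523), terminal deoxynucleotidyl transferase, adds bases at the joints of rearranging antigen receptor genes. It had 371, 263, 287 and 349 CPM in MPP, against 58.8, 62.1, 66.3 and 65.1 CPM in HSC. The 4 HSC libraries lay close together and every MPP library was far above them, a 5.03-fold difference (2.33 ± 0.11, adjusted p = 1.54e-06, edgeR). Rag2, a subunit of the recombinase that cuts those genes, had 18.7, 14.5, 13.8 and 16.5 CPM in MPP, against 5.55, 8.90, 5.81 and 6.34 CPM in HSC (1.26 ± 0.16). Its partner Rag1 did not pass the test (0.35 ± 0.16).

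The pre-B cell receptor tests a new heavy chain with a stand-in for the light chain, made by Igll1 and Vpreb1, neighbours on chromosome 16. Their promoters are shown because the genes rose together: both windows are 300 bases on the minus strand, from RefSeq for GRCm38.p6, chr16:16863936-16864235 for Igll1 and chr16:16869206-16869505 for Vpreb1. Capitals mark E-boxes of the kind bound by E2A proteins (CAGCTG or CAGGTG, on either strand).
Igll1: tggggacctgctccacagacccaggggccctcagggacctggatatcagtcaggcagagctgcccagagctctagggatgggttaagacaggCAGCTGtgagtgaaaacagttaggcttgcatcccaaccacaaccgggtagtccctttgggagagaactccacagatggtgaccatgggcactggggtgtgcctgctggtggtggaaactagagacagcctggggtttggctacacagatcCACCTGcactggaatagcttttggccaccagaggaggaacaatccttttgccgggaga
Vpreb1: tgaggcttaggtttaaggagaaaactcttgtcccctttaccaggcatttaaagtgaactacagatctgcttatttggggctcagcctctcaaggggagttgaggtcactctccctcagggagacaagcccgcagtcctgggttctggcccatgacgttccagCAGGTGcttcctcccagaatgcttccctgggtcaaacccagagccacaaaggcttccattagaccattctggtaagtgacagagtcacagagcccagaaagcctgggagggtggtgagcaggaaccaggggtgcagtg
The Igll1 window holds 2 matches and the Vpreb1 window 1. An E-box match was found in 8 of the 21 lymphoid promoters in the table (38.1%), against 32.6% of all promoters. Igll1 had 85.9, 80.3, 71.8 and 90.0 CPM in MPP, against 27.8, 30.7, 26.3 and 23.8 CPM in HSC (1.59 ± 0.10, adjusted p = 9.92e-06, edgeR). Vpreb1 had 35.7, 33.1, 28.2 and 32.2 CPM in MPP, against 11.7, 12.2, 11.3 and 11.9 CPM in HSC (1.46 ± 0.09). In both genes the lowest MPP library exceeded the highest HSC library by a wide margin.

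Other early lymphoid genes moved the same way: the pre-B adaptor Blnk (0.83 ± 0.07), the thymus homing receptor Ccr9 (0.92 ± 0.08), the orphan receptor Gpr171 (1.04 ± 0.10), the chromatin organiser Satb1 (0.63 ± 0.11) and the antibody joining chain Jchain (1.00 ± 0.13). Il12a, the p35 chain of interleukin-12, had 24.7, 20.9, 18.3 and 23.8 CPM in MPP, against 9.94, 9.90, 10.4 and 10.3 CPM in HSC (1.11 ± 0.10). The lymphoid transcription factors Ikzf1 (-0.02 ± 0.07), Bcl11a (0.00 ± 0.11) and Tcf3 (-0.35 ± 0.13) did not pass the test. Tcf3 was called lower without HSC replicate 2 (-0.44), and the list then had 18 higher members and 1 lower. By their medians, the lists of B cell and of T and NK cell markers moved less. Of 16 B cell markers, 7 were higher and none was lower (median 0.19), and 4 were higher without MPP replicate 1, MPP replicate 2 or HSC replicate 1. Ighm, the constant region of the IgM heavy chain, had 2647, 2525, 2835 and 3176 CPM in MPP, against 923, 1468, 895 and 1333 CPM in HSC (1.28 ± 0.16). The groups did not overlap for Ighm, while mature B cell genes such as Ighd (-0.19 ± 0.07), Ms4a1 (-0.33 ± 0.11) and Fcer2a (-0.22 ± 0.09) had negative values that missed the threshold. Ms4a1 was called lower without HSC replicate 2 (-0.19), and 8 members of the B cell list were then higher and 1 lower. Of 22 T and NK cell markers, 4 were higher (median 0.07). The kinase gene Lck was among them (0.61 ± 0.11), and the T cell receptor genes Cd3e (-0.12 ± 0.12) and Trac (-0.15 ± 0.09) were not. Summed B cell markers held 0.646 to 0.732% of counts in MPP and 0.362 to 0.418% in HSC; the part of mature B cells in the lymphoid changes was not tested.

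Dendritic cell genes were higher in MPP in 12 of 16 cases, with none lower and a median of 0.65. Xcr1, a chemokine receptor of cross-presenting dendritic cells, had 1.78, 1.45, 2.55 and 2.72 CPM in MPP, against 0.477, 0.527, 0.344 and 0.403 CPM in HSC (2.26 ± 0.26). Its level was low in all libraries but the groups were separate. The plasmacytoid marker Siglech had 57.9, 63.9, 65.2 and 53.4 CPM in MPP, against 32.6, 38.8, 35.1 and 29.6 CPM in HSC (0.82 ± 0.10), and Cox6a2, a cytochrome oxidase subunit of plasmacytoid cells, changed by 0.88 ± 0.10. Members of the dendritic list such as Flt3 and Ccr9 are also in the lymphoid list. Genes of MHC class II presentation followed: 8 of 12 were higher and none was lower (median 0.41). H2-Eb1, a class II β chain, had 275, 287, 297 and 263 CPM in MPP, against 167, 170, 178 and 173 CPM in HSC (0.70 ± 0.06, adjusted p = 6.48e-05, edgeR). The class II chains H2-Aa (0.55 ± 0.07) and H2-Ab1 (0.47 ± 0.06) and the peptide exchange chain H2-DMa (0.54 ± 0.06) were higher, and Ciita, the master regulator of these genes, was not called (0.18 ± 0.11).

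Granulocyte and monocyte genes showed no shift as a list. Of 29 priming genes, 6 were higher and 3 lower in MPP, with a median of -0.01; without HSC replicate 2, 8 were higher and 5 lower. Mpo, myeloperoxidase of primary granules, had 5308, 5417, 5723 and 5688 CPM in MPP, against 4545, 5875, 4858 and 5056 CPM in HSC. The highest of all libraries was HSC replicate 2, and Mpo was called only without it (0.12 ± 0.09 with it and 0.20 without it). The granule protease genes Prtn3 (-0.01 ± 0.06) and Elane (-0.24 ± 0.08) and the factor Cebpa (-0.11 ± 0.24) did not pass the test; Elane was called lower without HSC replicate 2 (-0.19). Cebpe, which drives later granulocyte stages, was lower at 45, 52.3, 53.8 and 48.9 CPM in MPP, against 88.3, 78.0, 74.7 and 93.8 CPM in HSC (-0.74 ± 0.09). Genes that were higher included the membrane glycoprotein Emb (0.63 ± 0.07), Plac8 (0.47 ± 0.07) and the TLR-associated protein Ly86 (0.46 ± 0.07). Plac8 differed between the groups with little spread: 993, 997, 987 and 991 CPM in MPP, against 678, 723, 769 and 696 CPM in HSC.

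All 18 markers of mature neutrophils had negative values (-0.06 to -0.41; median -0.24), of which 6 were called lower. That count was 0 without MPP replicate 1, 1 without MPP replicate 4 and 3 without MPP replicate 3. Mmp9, a gelatinase of late granules, had 478, 573, 612 and 492 CPM in MPP, against 757, 676, 754 and 649 CPM in HSC (-0.40 ± 0.09). It was not called without MPP replicate 1. Among 20 monocyte and macrophage genes 7 were lower and 3 higher (median -0.17), with 4 lower without MPP replicate 1 or MPP replicate 4, and 0 to 6 higher as single libraries were left out, the highest count being that without HSC replicate 2. The clearance receptor Axl had 23.7, 23.8, 24.4 and 21.6 CPM in MPP, against 32.9, 36.4, 33.4 and 36.3 CPM in HSC (-0.57 ± 0.07). The macrophage protein Cd5l (-0.78 ± 0.12) and the adhesion molecule Vcam1 (-0.72 ± 0.16) were lower too. Of the defining macrophage genes, C1qa was lower (-0.44 ± 0.11) and Adgre1 was not called (-0.19 ± 0.13). C1qa lost its call without HSC replicate 1, MPP replicate 1 or MPP replicate 4. Of the defining monocyte genes, Cx3cr1 was higher (0.41 ± 0.11). Ccr2 was not called with all 8 libraries (0.29 ± 0.10) and was called higher without HSC replicate 2 (0.39).

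The proliferation marker Mki67 was higher in MPP, while most genes of DNA replication and mitosis did not pass the test with all 8 libraries. Its promoter is shown because cell cycle promoters are known for a pair of elements, the CCAAT box and the cell cycle genes homology region (CHR). The window is chr7:135716330-135716629 on the minus strand, from RefSeq for GRCm38.p6, and capitals mark CCAAT and TTTGAA on either strand.
Mki67: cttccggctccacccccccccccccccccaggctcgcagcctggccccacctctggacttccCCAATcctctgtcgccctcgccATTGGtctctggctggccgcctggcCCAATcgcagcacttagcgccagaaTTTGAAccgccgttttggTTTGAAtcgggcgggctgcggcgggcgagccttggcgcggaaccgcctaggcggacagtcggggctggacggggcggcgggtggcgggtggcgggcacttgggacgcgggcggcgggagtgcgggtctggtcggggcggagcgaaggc
It holds 3 CCAAT matches and 2 TTTGAA matches. CCAAT was found in 25 of 30 mitosis promoters in the table (83.3%), against 37.9% of all promoters, and TTTGAA in 24 of 30 (80%), against 18.1%. Mki67 itself had 189, 217, 186 and 195 CPM in MPP, against 132, 132, 142 and 138 CPM in HSC (0.53 ± 0.07, adjusted p = 0.000351, edgeR). All MPP libraries exceeded all HSC libraries, HSC replicate 2 included.

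Of 34 mitosis genes, 3 were higher and 3 lower in MPP (median 0.01), and of 42 DNA replication genes, 3 were higher and 4 lower (median 0.03). The lower mitosis genes numbered 1 without HSC replicate 4 or any single MPP library. Limma voom on all 8 libraries called 9 mitosis genes and 10 DNA replication genes higher. Without HSC replicate 2 the edgeR counts became 14 higher and 4 lower of 34 (median 0.13) and 18 higher and 5 lower of 42 (median 0.14). Mitosis genes held 0.486 to 0.514% of counts in MPP, against 0.530% in HSC replicate 2 and 0.431 to 0.447% in the other HSC libraries. DNA replication genes held 0.629 to 0.693% in MPP, against 0.732% in HSC replicate 2 and 0.585 to 0.626% in the other HSC libraries. HSC replicate 2 was thus the highest library of all 8 for both lists, and the rest of the HSC lay below MPP. Cenpe, a kinetochore motor, was higher with all libraries: 77.9, 85.4, 68.7 and 84.5 CPM in MPP, against 53.1, 58.1, 55.1 and 50.5 CPM in HSC (0.55 ± 0.08). The clamp loader genes, Rfc1 (0.43 ± 0.07) and Rfc2 (0.37 ± 0.06), were higher too. Kif23, a kinesin of cell division, and Mcm10, a factor of replication starts, were not called with all 8 libraries and were called higher without HSC replicate 2 (0.41 for Kif23 and 0.38 for Mcm10). Mcm6, a subunit of the replicative helicase, went the other way with 201, 233, 223 and 255 CPM in MPP, against 384, 389, 332 and 303 CPM in HSC (-0.63 ± 0.10). Its helicase partners Mcm3 (0.14 ± 0.07), Mcm4 (0.06 ± 0.10) and Mcm5 (0.08 ± 0.09) were not called with all 8 libraries. All 3 were called higher without HSC replicate 2, Mcm3 by 0.21, Mcm4 by 0.19 and Mcm5 by 0.18 on the log2 scale.

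**Figure D3:**
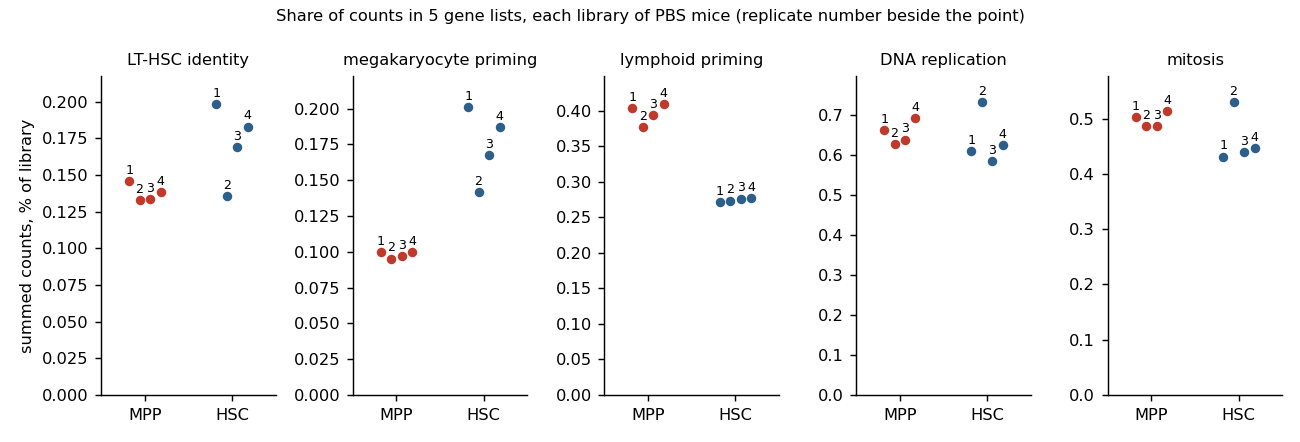
Summed counts of 5 gene lists as a percentage of each library, MPP left of HSC, with the replicate number beside each point. HSC replicate 2 lies below the other HSC libraries for HSC identity and megakaryocyte genes and above them for DNA replication and mitosis genes, while the lymphoid shares of MPP (0.377 to 0.409%) and HSC (0.272 to 0.277%) are apart.

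Some brakes on the cell cycle were lower in MPP. Of 22 CDK inhibitors, cyclins and related genes, 5 were lower and 2 higher (median -0.24), with 9 lower without HSC replicate 2. Cdkn1b, the CDK inhibitor p27, had 34.5, 40.2, 37.2 and 38.4 CPM in MPP, against 56.4, 73.6, 53.9 and 57.1 CPM in HSC (-0.68 ± 0.10). Rbl2, the pocket protein p130 of resting cells, had 10.6, 12.3, 13.9 and 15.3 CPM in MPP, against 26.2, 25.3, 21.2 and 21.6 CPM in HSC (-0.86 ± 0.12). Cdkn1a, the inhibitor p21, was an exception and was higher at 10.1, 9.46, 9.39 and 10.9 CPM in MPP, against 6.65, 6.44, 7.47 and 5.6 CPM in HSC (0.61 ± 0.11). The cyclin gene Ccnd3 was lower (-0.72 ± 0.07), the kinase gene Cdk4 was higher (0.37 ± 0.07), and Cdk6, which speeds HSC out of rest, was not called (-0.05 ± 0.08).

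Genes of ribosome production were higher in MPP by modest amounts. Of 34 genes of ribosome biogenesis and Myc, 20 were higher and 1 lower, with a median of 0.29, and of 48 cytosolic ribosomal protein genes, 21 were higher and 1 lower (median 0.25). The ribosomal protein count was 11 without MPP replicate 1 and 30 without HSC replicate 2, and DESeq2 called 34. Myc, the factor that drives this programme, had 256, 221, 232 and 238 CPM in MPP, against 176, 143, 146 and 172 CPM in HSC (0.57 ± 0.08). Npm1, the nucleolar chaperone nucleophosmin, had 554, 541, 557 and 553 CPM in MPP, against 397, 381, 398 and 415 CPM in HSC (0.47 ± 0.06). Neither gene showed any overlap between the groups. The nucleolar proteins Nolc1 (0.69 ± 0.07), Ncl (0.57 ± 0.08) and Rrp1b (0.51 ± 0.06) were higher, and Mxd1, an antagonist of Myc, was lower (-0.52 ± 0.13). Ribosomal proteins have many processed copies in the genome, and reads can be shared with them. Rps2, with 18.3, 21.5, 18.9 and 19 CPM in MPP, against 40.6, 30.0, 37.5 and 28.0 CPM in HSC, was the member that was lower (-0.81 ± 0.12).

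Metabolic lists moved little. Of 24 glycolysis genes, 6 were lower and 1 higher (median -0.06): the lactate transporter genes Slc16a3 (-0.90 ± 0.11) and Slc16a1 (-0.70 ± 0.13) and the pyruvate dehydrogenase kinase genes Pdk2 (-0.63 ± 0.13) and Pdk3 (-0.62 ± 0.09), which hold pyruvate back from the mitochondrion, were lower, and the glycolytic enzyme gene Tpi1 was higher (0.32 ± 0.06). Pdk3 had 9.91, 9.85, 9.72 and 8.83 CPM in MPP, against 14.7, 14.2, 16.3 and 13.7 CPM in HSC, with the groups apart. Of 36 genes of oxidative phosphorylation, 2 were higher and 2 lower (median 0.10), and 13 were higher without HSC replicate 2. Of 24 cholesterol synthesis genes, 4 were lower and none higher (median -0.08), and only 1 or 2 of them without any of 6 single libraries. Of 20 endoplasmic reticulum chaperone genes, 4 were higher and 3 lower (median -0.05). Pdia3, a disulfide isomerase of glycoprotein folding, had 142, 180, 172 and 197 CPM in MPP, against 395, 470, 337 and 274 CPM in HSC (-1.09 ± 0.15). The related isomerase gene Pdia4 was higher (0.32 ± 0.07).

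Some redox and stress genes were lower in MPP. Of 27 genes of FoxO, redox control and drug efflux, 12 were lower and 2 higher (median -0.28), with 6 lower without MPP replicate 1 and 7 without MPP replicate 4. Gpx3, a secreted glutathione peroxidase, had 35.0, 39.5, 38.8 and 38.0 CPM in MPP, against 66.5, 74.6, 52.5 and 64.7 CPM in HSC (-0.77 ± 0.10). The groups were apart, as for Aldh1a1, a retinaldehyde dehydrogenase, with 27.0, 29.4, 29.4 and 24.0 CPM in MPP, against 37.8, 53.8, 41.7 and 40.2 CPM in HSC (-0.66 ± 0.11). The glutathione synthesis gene Gclm (-0.68 ± 0.11) and the hypoxia factor gene Epas1 (-1.52 ± 0.24) were lower too, and the hypoxia factor gene Hif1a was not called (-0.30 ± 0.16). Of 22 p53 targets and damage genes, 8 were lower and 2 higher (median -0.27), with 5 lower without MPP replicate 1, 2 or 4. The stress sensor gene Sesn2 was lower (-0.60 ± 0.10) and Trp53 itself was higher (0.27 ± 0.07). In the BCL2 family 1 of 16 genes was lower, the survival gene Bcl2l1, at 246, 297, 279 and 286 CPM in MPP, against 415, 600, 397 and 436 CPM in HSC (-0.74 ± 0.12), and 1 was higher, the survival gene Bcl2a1d (0.52 ± 0.13).

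Interferon and MHC class I genes changed in both directions or slightly. Of 30 type I interferon genes, 6 were higher and 4 lower (median 0.08), with 10 higher without HSC replicate 2 and 3 higher without MPP replicate 1 or MPP replicate 2. The tetherin gene Bst2 had 78.4, 81.7, 77.7 and 78.8 CPM in MPP, against 56.2, 42.8, 49.8 and 53.5 CPM in HSC (0.65 ± 0.08). The antiviral enzyme genes Oas3 (-0.53 ± 0.08) and Rsad2 (-0.49 ± 0.10) and the ubiquitin-like modifier gene Isg15 (-0.43 ± 0.07) were lower. Of 16 MHC class I and immunoproteasome genes, 6 were higher and 1 lower (median 0.13), with 3 higher without MPP replicate 1 or MPP replicate 3. Psme1, a proteasome activator, had 223, 206, 207 and 209 CPM in MPP, against 153, 143, 159 and 156 CPM in HSC (0.47 ± 0.06). Of 17 immediate early genes tested, 4 were lower and none higher (median -0.17), with 2 lower without MPP replicate 1, 2 or 4, and with 7 lower and 1 higher without HSC replicate 2. Among them, Ier2 had 3.41, 3.92, 4.07 and 3.83 CPM in MPP, against 10.3, 6.32, 9.07 and 7.38 CPM in HSC (-1.12 ± 0.16). The AP-1 gene Junb was lower (-1.07 ± 0.20) and Fos was not called (0.06 ± 0.15). Of 29 innate sensing genes, 4 were lower and 1 higher (median -0.20), and 1 or 2 were lower without HSC replicate 4 or MPP replicate 1, 3 or 4. Nfkbia, the inhibitor of NF-κB, was lower (-0.47 ± 0.07).

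Some receptors and niche genes were lower in MPP. Of 27 adhesion and niche genes, 10 were lower and 2 higher (median -0.25), and of 32 cytokine receptors, 7 were lower and 4 higher (median -0.11). Il1r1, the interleukin-1 receptor, was among those that were higher: 14.4, 10.4, 12.5 and 13.7 CPM in MPP, against 6.63, 3.66, 5.72 and 6.91 CPM in HSC (1.15 ± 0.18, adjusted p = 0.0014, edgeR). Tgfbr3, a coreceptor for TGF-β, had 2.42, 2.74, 3.07 and 2.72 CPM in MPP, against 11.8, 5.45, 9.44 and 9.43 CPM in HSC (-1.73 ± 0.21). The groups were separate in both. The sphingosine 1-phosphate receptor gene S1pr1 (-0.56 ± 0.07) and the chemokine receptor gene Cxcr4 (-0.32 ± 0.07) were lower. Of 22 TGF-β, BMP and Notch genes, 4 were lower and 1 higher (median -0.05), with 7 lower without HSC replicate 2. Ltbp1, which binds latent TGF-β, had 0.852, 0.895, 0.936 and 1.01 CPM in MPP, against 4.52, 3.13, 3.31 and 7.72 CPM in HSC (-2.33 ± 0.29), and the receptor gene Notch2 changed by -0.53 ± 0.10.

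Imprinted growth genes were lower in 7 of 10 cases and higher in none (median -0.67), with 4 lower without MPP replicate 3; the other 10 listed genes did not pass the count filter. Grb10, an adaptor that restrains growth factor receptors, had 6.93, 6.55, 8.59 and 7.34 CPM in MPP, against 28.4, 22.9, 22.5 and 28.6 CPM in HSC (-1.80 ± 0.12, adjusted p = 1.29e-05, edgeR). Of 23 genes of DNA methylation and chromatin, 3 were higher and 2 lower (median 0.13), each of which lost its call without at least 2 single libraries. Without HSC replicate 2, 6 were higher and 3 lower, and 0 or 1 were higher without HSC replicate 4 or any single MPP library. Markers of stromal and endothelial cells were lower in 10 of 17 cases and higher in 2, with a median of -1.22, or -0.79 without HSC replicate 1. Cxcl12, the chemokine by which stroma holds HSC, had 40.8, 35.2, 37.8 and 34.4 CPM in MPP, against 124, 121, 96.6 and 96.2 CPM in HSC (-1.56 ± 0.10, adjusted p = 1.15e-05, edgeR). The stromal genes Lepr (-1.52 ± 0.18), Adipoq (-1.36 ± 0.20) and Kitl (-1.35 ± 0.20) fell with it. Endothelial genes did not move as 1: Pecam1 was higher (0.69 ± 0.06), and the defining marker Cdh5 was not called (0.30 ± 0.17). Without HSC replicate 2, the endothelial genes Kdr (-1.68), Flt4 (-1.29) and Stab2 (-0.87) were called lower. Cdh5 (0.41) and Emcn (0.11) were then not called, and Pecam1 was higher (0.70). Summed stromal and endothelial markers held 0.0293 to 0.0324% of counts in MPP and 0.0391 to 0.0530% in HSC. The part of other cells in these changes was not tested. The plot of called members by list shows all 36 lists against the shares of all genes.

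**Figure D4:**
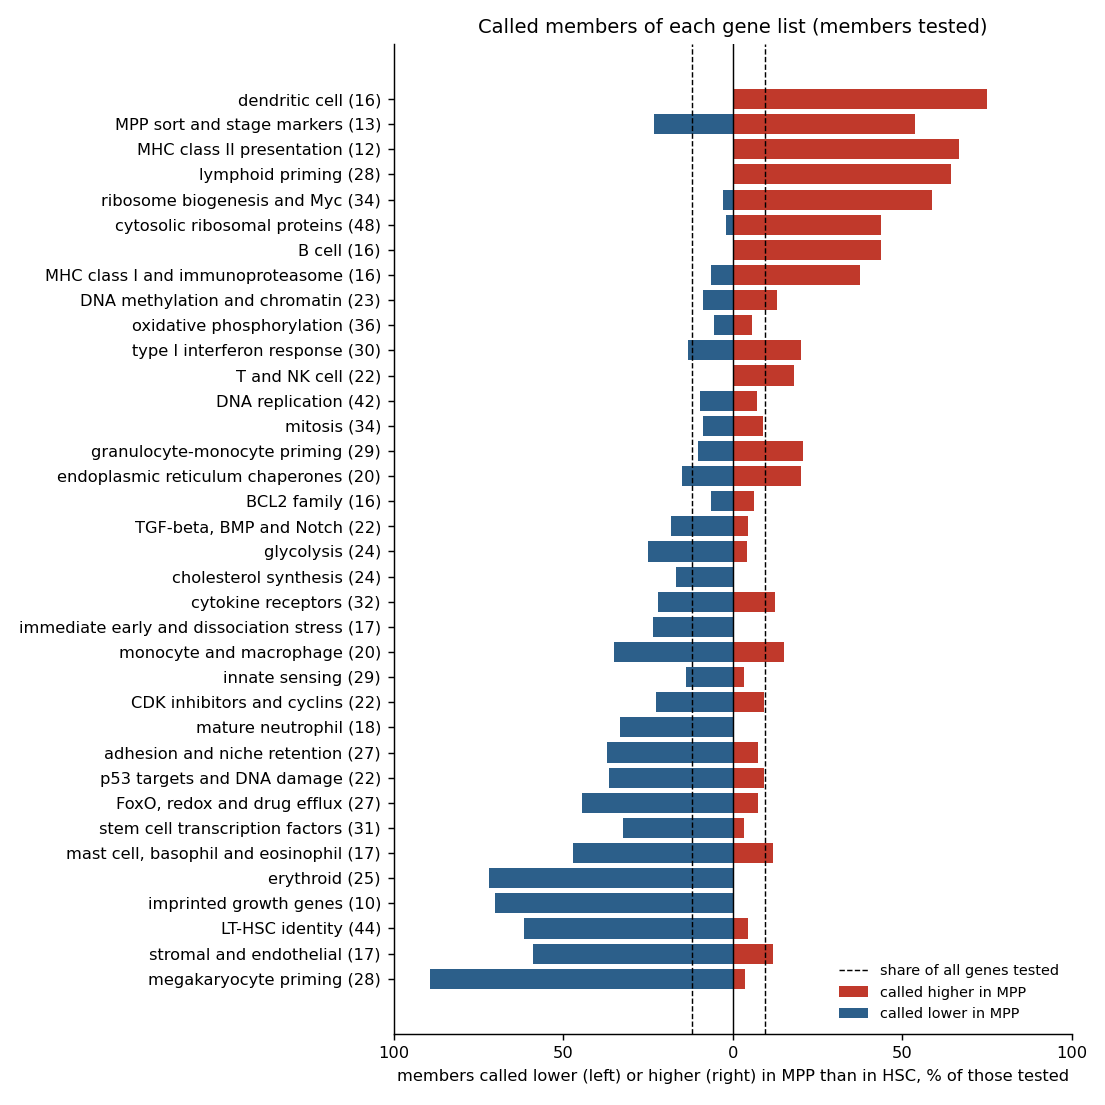
Percentage of the tested members of each of 36 gene lists called lower (left) or higher (right) in MPP than in HSC, ordered by median log2 fold change, with dashed lines at the shares of all genes tested (9.58% higher, 12.1% lower). Megakaryocyte genes lie lowest in the order, with 25 of 28 members lower, and dendritic cell genes highest, with 12 of 16 higher.

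Among the 12 largest increases of well-measured genes, 6 were lymphoid genes or sort and stage markers described above: Dntt, Igll1, Vpreb1, Cd34, Rag2 and Il12a. The others included Bex6 (1.40 ± 0.11), the T cell receptor signalling gene Tespa1 (1.36 ± 0.10) and the myeloid surface receptor gene Cd300e (1.29 ± 0.13). The leukaemia-associated coactivator gene Mn1 (1.19 ± 0.16), the secreted vascular factor gene Egfl7 (1.16 ± 0.14) and Il1r1, a cytokine receptor gene also described above, completed them. Egfl7 had 25, 19.3, 18.9 and 21 CPM in MPP, against 11.0, 7.14, 9.13 and 10.4 CPM in HSC, with the groups apart. Among the 12 largest falls, Timp3, an inhibitor of matrix metalloproteases, was the gene in no list: it had 2.82, 1.93, 2.07 and 1.30 CPM in MPP, against 24.8, 11.2, 20.6 and 11.4 CPM in HSC (-3.06 ± 0.30). The rest were megakaryocyte, red cell and HSC genes.

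The same contrast in β-glucan mice, from libraries not used above, gave changes of like direction. In those mice 5678 of 15945 genes were called (35.6%), 2815 higher in MPP (17.7%) and 2863 lower (18%). Of 3457 genes called in PBS mice and tested in both, 3381 (97.8%) had the same sign in β-glucan mice and 2626 (76%) were called the same way, while 1 was called the opposite way. The 2626 were 46.8% of the 5616 β-glucan calls tested in both. The median change of megakaryocyte genes was -1.72 in β-glucan mice and -1.89 in PBS mice, and that of HSC identity genes was -0.75 in β-glucan mice and -0.85 in PBS mice. Lymphoid genes had a median of 0.365 in β-glucan mice and 0.40 in PBS mice, and ribosome biogenesis genes 0.37 in β-glucan mice and 0.29 in PBS mice. Some other lists kept the sign of their median but not its size. The B cell median was 0.03 in β-glucan mice and 0.19 in PBS mice. That of p53 targets was -0.095 in β-glucan mice and -0.27 in PBS mice, and that of immediate early genes -0.35 and -0.17.

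**Figure D5:**
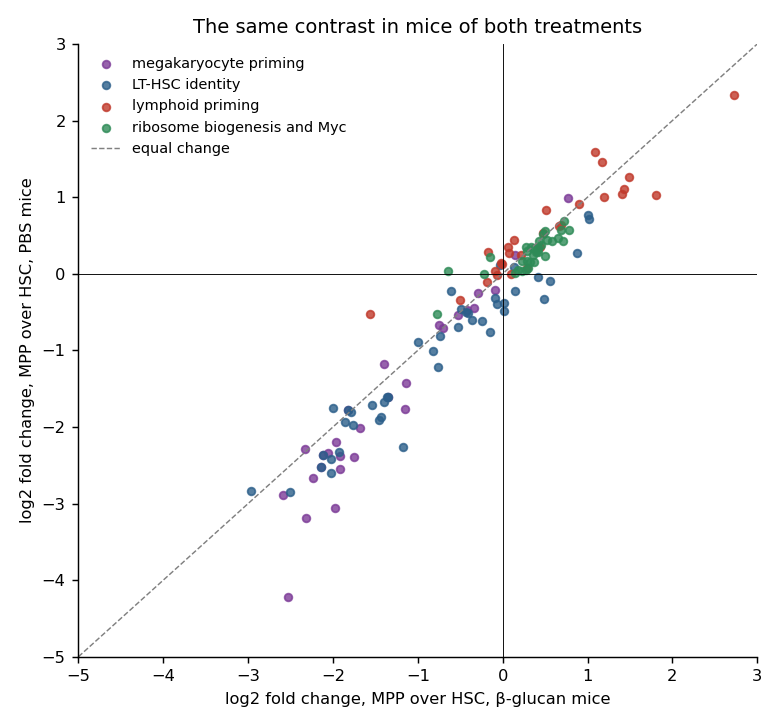
Log2 fold change of MPP over HSC in PBS mice (vertical axis) against that in β-glucan mice (horizontal axis) for tested members of 4 lists, with a dashed line of equal change. Megakaryocyte and HSC identity genes lie mostly at the lower left and lymphoid genes mostly at the upper right, near the line.

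Whether the change differed between treatments was tested in 1 fit of all 16 day 28 libraries. Of 16691 genes, 1 was called (0.00599%), and 1033 (6.19%) had an unadjusted p under 0.05. DESeq2 called 2 genes, and 1 to 3 were called as single libraries were left out. The 1 gene was Igkv4-91 (ENSMUSG00000076532, chromosome 6, 68768555 to 68769103), an antibody light chain variable segment. In β-glucan mice it averaged 4.63 CPM in MPP and 28.2 CPM in HSC (-2.58 ± 0.62). In PBS mice it had 17.7, 20.3, 21.6 and 48.4 CPM in MPP, against 1.23, 2.72, 0.907 and 1.68 CPM in HSC (4.04 ± 0.39). The difference, β-glucan minus PBS, was -6.64 ± 0.84 (adjusted p = 0.0047, edgeR). Reads of near-identical variable segments can be shared, so the level of 1 segment alone is uncertain.

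For the surface and priming genes no difference between treatments passed the test. An unadjusted p under 0.05 (edgeR) was found in 10 of 28 lymphoid genes, 4 of 13 sort and stage markers and 4 of 16 B cell markers. The number was 4 of 44 for HSC identity genes and 1 of 28 for megakaryocyte genes, against 6.19% of all genes. Cd34 averaged 311 CPM in MPP and 94.7 CPM in HSC of β-glucan mice (1.71 ± 0.09), and its difference between treatments was 0.44 ± 0.14 (adjusted p = 0.677, edgeR). The difference was 0.76 ± 0.34 for Flt3, 0.38 ± 0.15 for Dntt, -0.51 ± 0.13 for Igll1 and 0.84 ± 0.31 for Klf1. For Pdia3 the change was -0.10 ± 0.32 in β-glucan mice and -1.09 ± 0.15 in PBS mice, a difference of 0.98 ± 0.39. For Mcm6 it was 0.01 ± 0.17 in β-glucan mice and -0.63 ± 0.10 in PBS mice, a difference of 0.62 ± 0.21. For Ccng1, a cyclin G gene induced by p53, it was 0.00 ± 0.09 in β-glucan mice and -0.52 ± 0.09 in PBS mice, a difference of 0.50 ± 0.13. For Mki67 it was 0.19 ± 0.13 in β-glucan mice, where it was not called, and 0.53 ± 0.07 in PBS mice, a difference of -0.36 ± 0.15. None of these differences had an adjusted p under 0.677, so they are intervals rather than calls.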

How the data were processed

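Bone marrow HSC and MPP of 8 groups were sequenced, of which 2 groups of 4 libraries each enter the main comparison and 2 more the contrast in β-glucan mice. RNA was isolated with an RNeasy Plus Micro kit and amplified with a SMARTer Ultra HV v2 protocol, which does not mark strand, per the labels' protocols. The values used were raw gene counts deposited by the authors, not normalized. Per the submitters' processing notes, bcl2fastq 1.8.4, featureCounts and mm10 were used; the aligner, not given in the sources used here, is left unnamed. Without strand, reads of overlapping or antisense genes cannot be told apart, and near-identical copies can share reads. Columns carry no day; MPP were sampled at day 28 alone, so the table that has them was read as that day, with P for PBS and G for β-glucan. Symbols from GENCODE M21 matched 45143 of 45706 identifiers, and 563 kept their identifier.

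Tests used edgeR 4.0.16 under R 4.3.3. Genes were kept by filterByExpr (minimum count 10), scaled by TMM and tested by quasi-likelihood on the 8 libraries alone; p-values were adjusted by Benjamini-Hochberg and called under 0.05. Standard errors are the size of the log2 fold change over the square root of F. Totals of 29751430 to 39485556 counts per library give low counting error for all but the lowest genes, and no 2 libraries were duplicates. The procedure was checked on simulated counts. Alternatives were other scalings, filters, DESeq2 1.42.0, limma 3.58.1 voom, a fit of 16 libraries, a replicate block, removal of haemoglobin and neutrophil genes, and leaving out each library.

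The members and the 36 gene lists (854 distinct symbols found in the table) were chosen with earlier results of these data known, and some come from an earlier analysis of them. Named genes are the 12 of largest change in each direction among called, non-overlapping genes with a standard symbol and a mean log2 CPM from 3 upwards, up to 5 of the smallest p per list, 20 fixed genes and called differences between treatments. Other list members were picked as examples after their values were seen. A few genes that the rule names are not reported here. Promoters of 668 list members were found in a RefSeq table of GRCm38.p6.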

Additional observations from a re-analysis of the deposited data

Results flagged for a closer look

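Within each group of 4 libraries, a sample was marked when its gap to the nearest other sample, as a part of the group's whole range, passed Dixon's 95% critical value. This held for 21 of 456 groups tested (4.61%). The groups come from the same 8 libraries and many of their genes were chosen by small p, so that share cannot be read against chance. Of the 21, 7 were HSC replicate 2. In that library Cavin2 was lowest at 15.2 CPM (24.7 to 25.6 in the others) and Psmb10 lowest at 94.0 CPM (106 to 107). Cdkn1b was highest there at 73.6 CPM (53.9 to 57.1) and Btg2 at 447 CPM (293 to 313). Its share of counts in stem cell transcription factors was lowest at 0.0947% (0.116 to 0.121%), and its shares in mitosis genes, 0.530% (0.431 to 0.447%), and in monocyte and macrophage genes, 0.104% (0.0848 to 0.0854%), were highest.

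Among the other HSC libraries, Padi4 was highest in replicate 1 at 98.2 CPM (85.5 to 87.3), Slc16a1 highest in replicate 3 at 78.3 CPM (52.2 to 54.1) and Trp53inp2 lowest in replicate 4 at 17.3 CPM (21.3 to 22.1). Among MPP libraries, replicate 1 was lowest for Racgap1 at 38.5 CPM (48.1 to 48.8) and highest for Jam3 at 1.68 CPM (1.07 to 1.12). MPP replicate 2 was lowest for Psme2 at 58.5 CPM (62.0 to 62.7) and Prg2 at 2091 CPM (2355 to 2408) and highest for Gzmb at 3.83 CPM (3.14 to 3.23). MPP replicate 3 was lowest for Cox5a at 4.94 CPM (5.62 to 5.73) and highest for the share of MHC class II genes at 0.189% (0.181 to 0.182%). MPP replicate 4 was lowest for Slamf1 at 0.886 CPM (1.23 to 1.28), Hsd17b7 at 7.56 CPM (8.23 to 8.33) and Gzma at 9.46 CPM (10.7 to 10.9), and highest for Igkv4-91 at 48.4 CPM (17.7 to 21.6).

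The change of Igkv4-91 differed between treatments, by -6.64 on the log2 scale (β-glucan minus PBS mice), as given above.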

How the results depend on the processing

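The total of 3493 called genes was 3459 with DESeq2 size factors, 3601 with upper quartile scaling, 3450 with no filter, 3037 with the stricter filter, 4049 with the DESeq2 test, 4998 with limma voom and 4142 with 16 libraries in 1 fit; removing haemoglobin and neutrophil genes gave 3487. Leaving out single libraries gave 2004 (without MPP replicate 1) to 5050 (without HSC replicate 2) called genes, 889 to 2322 higher and 1115 to 2728 lower. The same-numbered MPP and HSC libraries were not paired by the labels, and their deviations from the group means correlated by -0.004 to 0.078; with the replicate number as a block 3516 genes were called, 3186 of them shared, and in β-glucan mice 6706 against 5678 without the block. The β-glucan count ran from 4605 to 5684 as single libraries were left out. The difference between treatments was called for 2 genes with no filter and for 2 with DESeq2, and for 1 to 3 without single libraries. No named gene reversed. Without MPP replicate 1, 26 named genes lost their call, and 16, 16 and 19 did so without MPP replicates 2, 3 and 4. The number was 12, 6 and 12 without HSC replicates 1, 3 and 4. Without HSC replicate 2, 6 named genes gained a call and 2 lost theirs. The stricter filter left 15 called lower HSC identity genes of 27 because fewer were tested. Under it the count of lower stromal and endothelial genes was 4 against 10, and of imprinted growth genes 4 against 7. TGF-β, BMP and Notch genes and immediate early genes each had 2 lower against 4. Higher DNA replication genes numbered 5 against 3. Precision is limited by 4 libraries a group and, for genes near 1 CPM, by their counts.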

Other observations

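Immunoglobulin variable segments, left out of the named genes because of their shared reads, were higher in MPP as a class; they were described after their values were seen. Of 181 segments tested in PBS mice 65 were called higher and none lower, with a median log2 fold change of 1.17, and in β-glucan mice 67 of 176 were higher and 1 lower, with a median of 1.13. Their summed share of counts was 0.204, 0.208, 0.235 and 0.237% in the MPP libraries of PBS mice, against 0.0892, 0.130, 0.0832 and 0.1% in the HSC libraries. The groups were apart, with HSC replicate 2 the highest HSC library.

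A few genes were lower in MPP while most genes of their own list were not, also picked after their values were seen: Mcm6, Dut and Rfc5 of DNA replication, Pdia3 of the endoplasmic reticulum and Cyc1 and Cox5a of the respiratory chain. Dut, the enzyme that clears dUTP, had 35.1, 42.3, 39.7 and 44.0 CPM in MPP, against 84.9, 78.5, 77.4 and 61.9 CPM in HSC. Cyc1, cytochrome c1, had 12.6, 14.3, 15.0 and 14.9 CPM in MPP, against 29.0, 40.7, 25.3 and 20.7 CPM in HSC. In all 6 genes HSC replicate 4 was the lowest HSC library, and all 6 were called. In β-glucan mice the changes were -0.12 ± 0.23 for Dut and -0.50 ± 0.43 for Cyc1. The collagen gene Col1a1 had 1.25, 1.29, 2 and 10.8 CPM in MPP, against 39.5, 3.72, 2.78 and 3.25 CPM in HSC, so that its level rested on 1 library in each group.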
